A study of Mus musculus with 6 samples.

Results

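The transcripts of 8 genes of mast cells and basophils were followed in RNA from transplanted mouse haematopoietic stem cells: Fcer1a, Ms4a2, Cpa3, Mcpt8, Gzmb, Prss34, Hdc and Cma1. Every probe that the array's platform table assigns to one of these symbols was taken, which gave 13 of the 46237 probes and 8 of the 22491 gene symbols of the deposited table. The genes had been picked with their levels on these arrays and their Matn4-/- against wt contrast already seen, so both are given here as a description. Levels come from 6 Illumina bead arrays read in 1 colour, 3 labelled Matn4-/- and 3 labelled wt. The Matn4-/- cells came from CD45.2 donors and lack Matn4, the gene of the matrix protein matrilin-4. The wt cells came from CD45.1.2 donors, which carry both alleles of that antigen. A 1:1 mix of both donors' marrow was given to CD45.1 recipients that had received 2 doses of 500 rad, so cells of both genotypes shared their hosts and the transplantation. After 4 weeks stem cells were sorted as LSK CD150+CD48- cells, that is, cells without lineage markers that carry Sca-1, Kit and CD150 and lack CD48. Mice were female, of the strain C57/BL6 and 12 weeks old per the labels. An input of 2.5 ng of RNA was amplified for each array. The arrays of a genotype are called biological replicates, but whether they came from separate recipients or pools is not stated, so p-values measure only the spread between these arrays. The arrays of both genotypes are numbered 1 to 3, and the labels do not say what arrays with the same number share.

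Mast cells and basophils arise from bone marrow progenitors and carry the high-affinity IgE receptor on their surface. When antigen crosslinks IgE on that receptor, the cells release granules that hold histamine, proteases and proteoglycan. Basophils circulate and live briefly, while mast cells mature in tissues and depend on the Kit receptor. In the mouse, Mcpt8 and Prss34 are used as basophil protease genes, whereas Cma1 is a chymase gene of connective tissue mast cells.

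The region around the transcription start is shown for the 4 genes whose signal could be read, since the account of levels turns on them. Each sequence is the RefSeq promoter on GRCm38.p6, from 250 bases before the start to 50 bases after it, written in the direction of transcription. Capitals mark the GATA motif, searched on both strands as AGATAA, as its variant TGATAA, or with a last G as AGATAG and likewise as TGATAG. A match in the opposite direction appears as its reverse complement.
Fcer1a promoter, chr1:173227180-173227479, minus strand: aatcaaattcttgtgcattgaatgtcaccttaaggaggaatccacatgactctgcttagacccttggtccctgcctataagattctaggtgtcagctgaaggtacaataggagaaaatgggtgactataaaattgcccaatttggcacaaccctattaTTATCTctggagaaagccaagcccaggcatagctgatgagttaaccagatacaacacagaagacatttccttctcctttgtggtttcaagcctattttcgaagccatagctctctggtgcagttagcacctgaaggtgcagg
Mcpt8 promoter, chr14:56085148-56085447, minus strand: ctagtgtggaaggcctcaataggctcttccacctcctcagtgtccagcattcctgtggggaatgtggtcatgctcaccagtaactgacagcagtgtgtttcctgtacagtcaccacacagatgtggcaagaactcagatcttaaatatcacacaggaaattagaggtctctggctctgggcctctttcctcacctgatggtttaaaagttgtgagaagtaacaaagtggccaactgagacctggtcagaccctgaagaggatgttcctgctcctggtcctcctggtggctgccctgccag
Prss34 promoter, chr17:25298144-25298443, plus strand: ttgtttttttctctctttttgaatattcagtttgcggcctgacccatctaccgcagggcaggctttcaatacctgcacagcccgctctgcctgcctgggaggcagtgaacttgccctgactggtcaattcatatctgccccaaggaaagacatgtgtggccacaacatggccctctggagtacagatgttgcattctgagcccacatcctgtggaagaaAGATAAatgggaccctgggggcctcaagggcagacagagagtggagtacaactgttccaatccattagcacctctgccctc
Hdc promoter, chr2:126618629-126618928, minus strand: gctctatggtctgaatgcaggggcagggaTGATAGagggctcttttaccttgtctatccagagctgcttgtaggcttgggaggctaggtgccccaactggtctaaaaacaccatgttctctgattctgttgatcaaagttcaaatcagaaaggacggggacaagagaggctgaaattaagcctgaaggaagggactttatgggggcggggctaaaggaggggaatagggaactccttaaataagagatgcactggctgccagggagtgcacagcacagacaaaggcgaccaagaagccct

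GATA factors act in the mast cell and basophil lineage, with Gata2 the member known from both. The motif was found in 6 of the 8 member promoters, against 29.6% of 32544 RefSeq promoters of the same length. It lay 92 bases before the start of Fcer1a, 31 before that of Prss34 and 221 before that of Hdc. In Mcpt8 and Gzmb none of the 4 spellings occurred in the 300 bases. The E-box bound by MITF, a mast cell transcription factor, was searched as CACGTG or CATGTG on both strands and was found in 2 of 8, Fcer1a and Prss34, against 20.5% of all promoters. The RUNX motif TGTGGT, again on both strands, was found in 5 of 8, against 16.7%. In the member promoters no matches of different motifs overlapped. A match describes the letters only.

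The deposited values are intensities on a linear scale that still hold the background of the array. Because the mice were female, probes of Y-linked genes show what an absent transcript reads. The 12 such probes, of 7 genes, lay between 93.1 and 142 with a median of 108. The brightest on each array read 142, 134 and 124 on Matn4-/- arrays 1, 2 and 3, and 127, 142 and 131 on wt arrays 1, 2 and 3. A member was taken as readable where its brightest probe was brighter, on at least 5 arrays, than every Y-linked probe of that array. This level was lowest on Matn4-/- array 3, which makes it easier to pass there. Array medians lay between 118.0 and 120.4. The first quartile of all probes was 112 on Matn4-/- array 3 and 107 to 108 on the other 5 arrays.

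By that rule the label holds for only 4 of its 8 genes. Fcer1a, Mcpt8, Prss34 and Hdc passed, and Mcpt8 and Hdc did so on all 6 arrays, as did 19.2% of all probes. Ms4a2, Cpa3, Gzmb and Cma1 did not pass. The 9 probes that failed, which include the second probes of Fcer1a and Hdc, lay between 100.4 and 147, and 4 of them never exceeded the Y-linked level. The readable set therefore holds the alpha chain of the IgE receptor, the histamine-forming enzyme and both basophil proteases. The mast cell genes Cma1 and Cpa3 lay at the Y-linked level on most arrays.

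**Figure D1:**
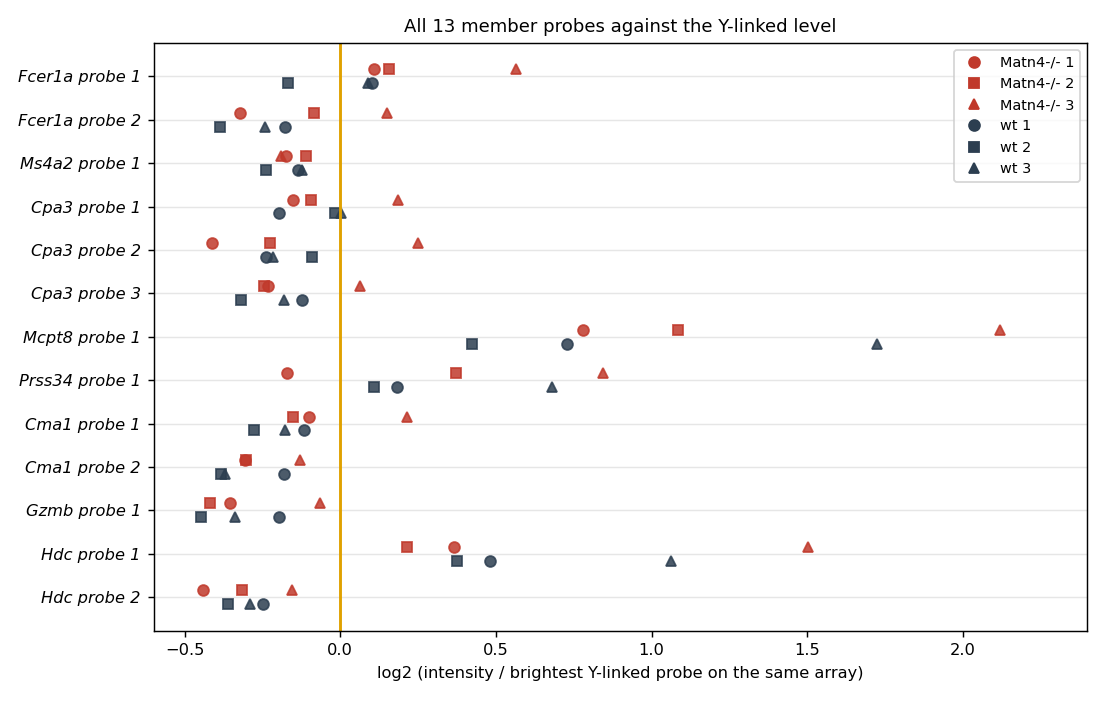
Each point is 1 probe on 1 array, plotted as the log2 ratio of its intensity to that array's brightest Y-linked probe, with Matn4-/- arrays in red above wt arrays in dark blue and the array number as the symbol. The orange line marks that probe; the first probes of Mcpt8, Hdc, Prss34 and Fcer1a lie to its right on 5 or 6 arrays, and the other 9 probes lie around or left of it.

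The IgE receptor is built from an alpha chain that binds IgE, encoded by Fcer1a, a beta chain encoded by Ms4a2 that amplifies the signal, and a gamma chain encoded by Fcer1g that other Fc receptors also use. The brighter Fcer1a probe read 152, 150 and 183 on Matn4-/- arrays 1, 2 and 3, and 137, 127 and 139 on wt arrays 1, 2 and 3. All 3 Matn4-/- arrays lay above all 3 wt arrays. Array 3 was clearly the highest in Matn4-/- cells, whereas in wt cells arrays 3 and 1 differed by 0.03 on the log2 scale, less than the SE of the fit. After the median Y-linked signal of each array was subtracted, array 3 over array 1 was 1.69-fold in Matn4-/- cells and 0.848-fold in wt cells, so in wt cells array 3 was then no longer the highest. Means were 162 ± 18.5 in Matn4-/- cells and 134 ± 6.69 in wt cells (SD, n = 3 each), a log2 difference of 0.27 ± 0.09 (SE) with a limma adjusted p of 0.934. Without Matn4-/- array 3 the difference was 0.17.

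The second Fcer1a probe read 113, 127 and 138 in Matn4-/- cells and 113, 109 and 111 in wt cells. Its groups did not overlap either, but it exceeded the Y-linked level only on Matn4-/- array 3. The platform table assigns both probes to Fcer1a, so they count as 1 gene. Ms4a2 read 125, 124 and 109 in Matn4-/- cells and 116, 120 and 120 in wt cells. It never exceeded the Y-linked level, and its lowest value was on Matn4-/- array 3, where Fcer1a was highest. Fcer1g, the gamma chain gene, read 116, 132 and 177 in Matn4-/- cells and 121, 124 and 164 in wt cells, and exceeded that level on both arrays numbered 3 only.

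Histamine is made from histidine by the enzyme that Hdc encodes. The brighter Hdc probe read 182, 156 and 350 in Matn4-/- cells and 178, 184 and 273 in wt cells, by array number. The array numbered 3 was the highest of each genotype, the other 4 arrays lay between 156 and 184, and the genotypes overlapped. Array 3 over array 1 was 1.92-fold in Matn4-/- cells and 1.54-fold in wt cells. After the median Y-linked signal was subtracted it was 3.32-fold in Matn4-/- cells and 2.18-fold in wt cells. Means were 229 ± 106 in Matn4-/- cells and 212 ± 53.4 in wt cells (SD, n = 3 each), a log2 difference of 0.05 ± 0.29 (SE). Without Matn4-/- array 3 that difference was -0.30. The second probe read 104 to 111 on all 6 arrays, so the pattern rests on 1 probe.

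Mcpt8, a serine protease of basophil granules, had the highest signal of the 8 genes and the widest range, 1.50 on the log2 scale. It read 243, 285 and 538 in Matn4-/- cells and 211, 191 and 432 in wt cells. The arrays numbered 3 were the highest of each genotype, and the wt array 3 stood above Matn4-/- arrays 1 and 2, so the genotypes overlapped. Array 3 over array 1 was 2.21-fold in Matn4-/- cells and 2.05-fold in wt cells. After the same subtraction it was 3.21-fold in Matn4-/- cells and 2.98-fold in wt cells. Means were 355 ± 160 in Matn4-/- cells and 278 ± 134 in wt cells (SD, n = 3 each), a log2 difference of 0.37 ± 0.35 (SE). Leaving out Matn4-/- array 3 gave 0.02 and leaving out wt array 3 gave 0.74.

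Prss34, which encodes a basophil tryptase of the mouse, read 126, 174 and 222 in Matn4-/- cells and 144, 153 and 210 in wt cells. It was the only member probe with array 1 lowest and array 3 highest in both genotypes, an order found in 3.42% of all probes. It passed the Y-linked level on every array except Matn4-/- array 1. After the Y-linked subtraction array 3 over array 1 was 7.11-fold in Matn4-/- cells, against an array 1 at the Y-linked level, and 2.39-fold in wt cells. Means were 174 ± 48.2 in Matn4-/- cells and 169 ± 35.4 in wt cells (SD, n = 3 each), a log2 difference of 0.02 ± 0.21 (SE). The difference was smaller than the spread within either genotype and was -0.17 without Matn4-/- array 3.

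**Figure D2:**
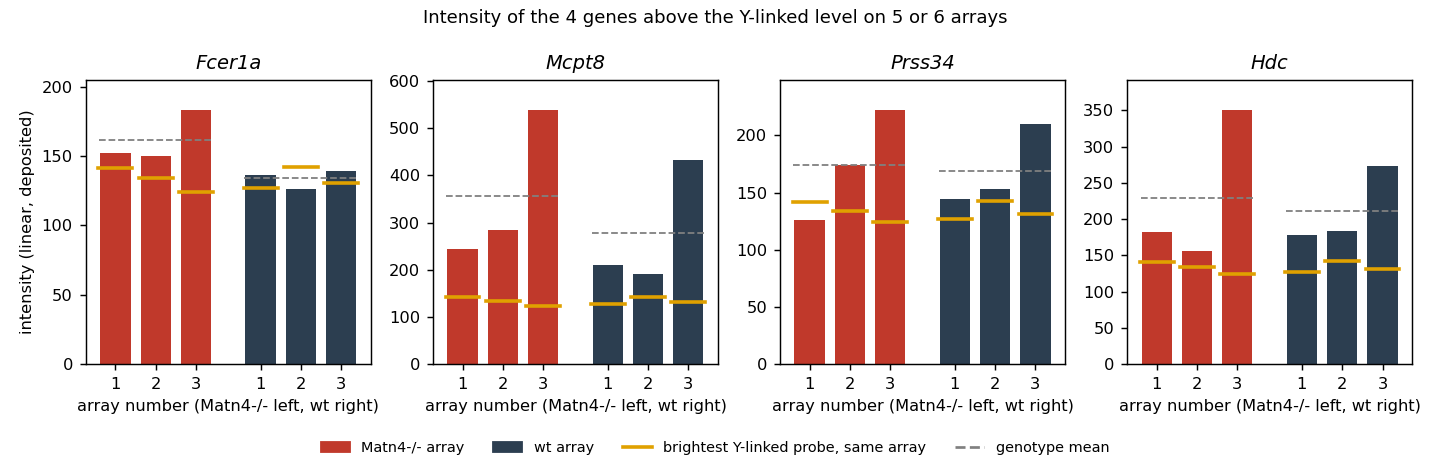
Bars give the deposited intensity of Fcer1a, Mcpt8, Prss34 and Hdc on the 3 Matn4-/- arrays (red, left) and the 3 wt arrays (dark blue, right), with each array's highest Y-linked value as an orange line and the genotype mean as a dashed line. The bar of array 3 is the tallest of its genotype in all 4 panels, for Fcer1a in wt cells by a margin under the SE of the fit, and Mcpt8 reaches 538 and 432 there.

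The other granule genes gave little signal. Cpa3 encodes carboxypeptidase A3, a granule enzyme of mast cells that their progenitors also express. Its brightest probe read 127, 126 and 141 in Matn4-/- cells and 111, 141 and 131 in wt cells, and passed the Y-linked level on 1 array of each genotype. Its other 2 probes passed on Matn4-/- array 3 alone, where they read 147 and 129. Cma1 encodes the chymase mMCP-5. Its brighter probe read 132, 121 and 144 in Matn4-/- cells and 117, 117 and 116 in wt cells, so that the genotypes did not overlap, but only Matn4-/- array 3 exceeded the Y-linked level and no fold is given. Gzmb, the granzyme B of cytotoxic lymphocytes, read 111, 100.4 and 118 in Matn4-/- cells and 111, 104 and 103 in wt cells, never above that level.

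No member passed the test between genotypes. Of the 13 probes, 0 had an adjusted p under the threshold of 0.05 (limma, 0.934 to 1.00), where 0.026% of all probes did. An unadjusted p under 0.05 was reached by 3 probes, both of Fcer1a and 1 of Cma1, against 4.52% of all probes. All 3 were higher in Matn4-/- cells, the direction of 1.89% of all probes at that level. The same 3 were those with non-overlapping groups, against 5.7% of all probes in that direction. The difference was above 0 for 12 of 13 probes, against 56.1% of all probes. The median over the brightest probes of the 8 genes was 0.05, against 0.01 over all probes. The genes were chosen with this contrast in view, and nothing is read from these counts.

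For Mcpt8, Hdc and Prss34 the array numbered 3 was the highest of each genotype, with and without the Y-linked subtraction. As deposited, all 4 readable genes had array 3 highest in both genotypes, and none of the other 9 member probes did, so the count was 4 of 13 against 14.4% of all probes. Fcer1a left that count when the Y-linked signal was subtracted. That share was 7.33% among the 8884 probes above the Y-linked level on all arrays. The choice of members used this order, and the count is a description. Mcpt8 and Hdc ranged over at least 1 on the log2 scale, as did 0.649% of all probes and 2.19% of those above the Y-linked level throughout. Within its genotype Matn4-/- array 3 was the highest for 11 of the 13 probes, while wt array 3 was the highest of its genotype for 4. Over all probes array 3 was the highest of the Matn4-/- arrays for 41.4% (59.4% of the probes dimmer than the median) and of the wt arrays for 35.6%. The mean over the 4 readable genes, centred on the 6 arrays, was -0.21, -0.10 and 0.58 on Matn4-/- arrays 1, 2 and 3, and -0.26, -0.29 and 0.29 on the wt arrays, on the log2 scale. In bulk RNA, a change in the number of cells of one type cannot be told apart from a change in RNA per cell.

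Mcpt8, Cma1 and Gzmb lie in one cluster of protease genes on chromosome 14, and Prss34 lies in a tryptase cluster on chromosome 17. In gene order the first cluster runs Cma1, Cma2, Mcpt1, Mcpt2, Mcpt9, Mcpt4, Mcpt8, Ctsg, Gzme, Gzmd, Gzmg, Gzmn, Gzmf, Gzmc and Gzmb. Of these 15 genes, only the neighbours Mcpt8 and Ctsg passed the Y-linked level on all 6 arrays, and each of the others passed on 1 array at most. Ctsg, which encodes cathepsin G of neutrophil and mast cell granules, read 143, 168 and 211 in Matn4-/- cells and 146, 150 and 196 in wt cells. Array 3 was thus the highest for both neighbours in both genotypes. At the tryptase cluster Prss28, Prss29 and Tpsb2, a mast cell tryptase gene, never passed the level. Prss30, another serine protease gene of that list, read 156, 133 and 129.6 in Matn4-/- cells and 132, 121 and 134 in wt cells and passed it on 4 arrays. Of the other genes listed for the clusters, 0 of 11 on chromosome 14 and 0 of 5 on chromosome 17 passed the limma test. An unadjusted p under 0.05 was reached by 1 and 0 of them, against 4.52% of all probes.

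**Figure D3:**
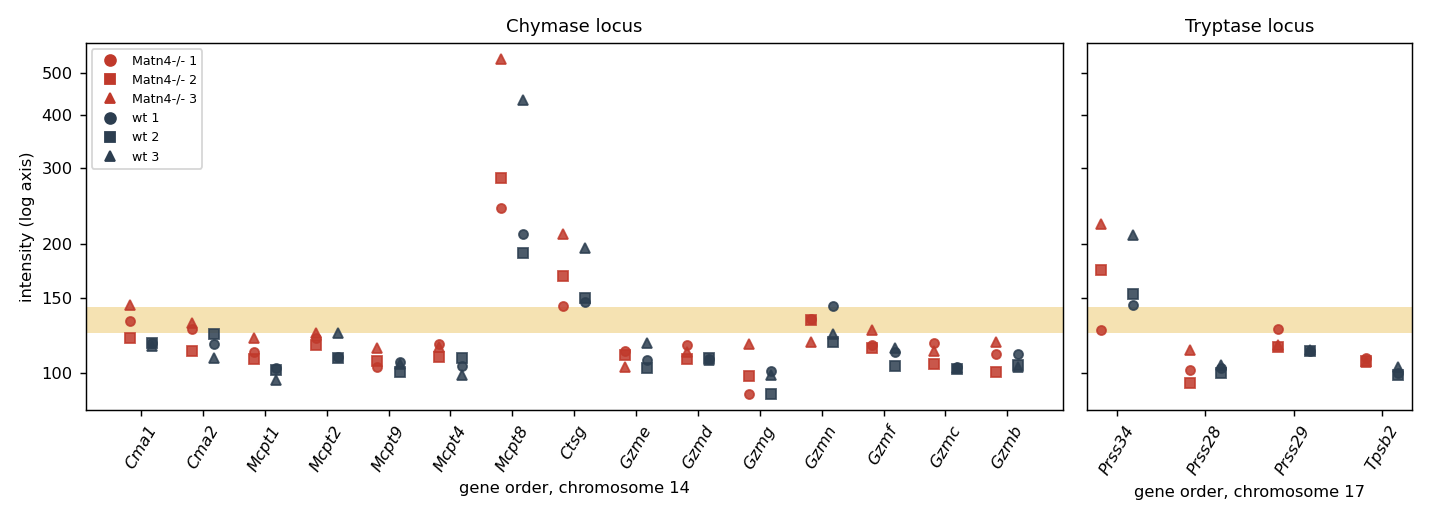
Points give the intensity, on a log axis, of the brightest probe of each gene on each array, for the protease cluster of chromosome 14 (left) and the tryptase cluster of chromosome 17 (right), in gene order, with Matn4-/- arrays in red and wt arrays in dark blue. The shaded band spans the brightest Y-linked probes of the 6 arrays, 124 to 142; only Mcpt8, Ctsg and Prss34 stand clear of it on most arrays.

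Other genes of the lineage were read from lists of genes outside the 8. Of 12 IgE receptor and signalling genes with a probe, 0 passed the limma test and 6 were above the Y-linked level on all arrays. An unadjusted p under 0.05 was reached by 2 of them and by 4.52% of all probes, the share for each list below too. The 2 were adaptor genes, both lower in Matn4-/- cells. Lat, the adaptor that links the receptor to phospholipase C, read 162, 160 and 142 in Matn4-/- cells and 192, 171 and 191 in wt cells, so the genotypes did not overlap (log2 -0.25 ± 0.08 SE, limma adjusted p = 0.868). Lcp2, which encodes the adaptor SLP-76, differed by -0.22. Fcer1g, Syk, Lat2 and Inpp5d had array 3 highest in both genotypes, an order found in 14.4% of all probes. Some margins were small. Arrays 3 and 1 differed by 0.03 on the log2 scale for Lat2 in Matn4-/- cells, where the SE of the fit was 0.13. For Syk, which passed the Y-linked level on 2 arrays, they differed by 0.06 in each genotype, with an SE of 0.06.

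Of 8 genes of histamine handling and lipid mediators, 0 passed the limma test and 1 had an unadjusted p under 0.05. This was Slc18a2, the vesicular transporter that loads histamine into granules, which read 195, 232 and 199 in Matn4-/- cells and 261, 272 and 287 in wt cells. Every Matn4-/- array lay below every wt array, with a log2 difference of -0.39 ± 0.08 (SE, limma adjusted p = 0.449). For this separation toward lower values, here as for Lat, the share of all probes was not counted. Hdc, which acts before Slc18a2, overlapped between the genotypes, and none of the 8 genes had array 3 highest in both genotypes.

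Of 10 granule protease and proteoglycan genes, 5 never exceeded the Y-linked level and 3 did so on all arrays, Ctsg, Ctsc and Srgn. In this list 1 gene had an unadjusted p under 0.05, Mcpt1, which was never above that level. Of 18 surface receptor genes, 11 never exceeded it, and Kit, Cd63 and Ptger3 did so on all arrays. Kit, the stem cell factor receptor, which stem cells also carry, read 601, 653 and 462 in Matn4-/- cells and 470, 515 and 575 in wt cells. Its array 3 was the lowest in Matn4-/- cells and the highest in wt cells, unlike the 4 readable members. Ptger3, a prostaglandin E2 receptor gene, was the one receptor gene with an unadjusted p under 0.05 (log2 -0.18).

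Of 15 transcription factor genes, 5 were above the Y-linked level on all arrays and 0 had an unadjusted p under 0.05. Gata2 read 682, 795 and 728 in Matn4-/- cells and 791, 797 and 764 in wt cells, and array 3 was the highest of neither genotype. Of 11 cytokine and chemokine genes, 1 was above that level on all arrays and 0 had an unadjusted p under 0.05. That gene was Ccl4, a chemokine, which read 352, 260 and 445 in Matn4-/- cells and 288, 295 and 448 in wt cells. In none of these lists did a gene pass the limma test.

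Some genes of other blood cells were also highest on the arrays numbered 3, and others were not. Prg2, the major basic protein of eosinophil granules, which basophils also express, read 126, 652 and 1449 in Matn4-/- cells and 210, 735 and 1058 in wt cells. Epx, the eosinophil peroxidase gene, read 101, 147 and 234 in Matn4-/- cells and 113, 146 and 209 in wt cells. The arrays numbered 1 were the lowest and those numbered 3 the highest for both genes. Prss34 had the same order of arrays in both genotypes, and Mcpt8 had it in Matn4-/- cells.

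The summed signal of 8 eosinophil genes was 938, 1481 and 2545 in Matn4-/- cells and 998, 1617 and 2013 in wt cells. Prg2 carried most of this. Without it, in a sum added after the data were seen, the other 7 genes gave 813, 828 and 1096 in Matn4-/- cells and 788, 882 and 955 in wt cells. In that list 4 genes had array 3 highest in both genotypes, none was above the Y-linked level on all arrays, and 3 never exceeded it. The summed signal of 15 neutrophil genes was 2432, 2336 and 3058 in Matn4-/- cells and 2184, 2671 and 2961 in wt cells. Of these, 6 had array 3 highest in both genotypes, Mpo and Prtn3 were above the level on all arrays, and 4 never exceeded it. Camp, a gene of this list without that order, read 167, 134 and 113 in Matn4-/- cells and 120, 212 and 161 in wt cells. For 9 erythroid genes the sum was 2923, 3104 and 3770 in Matn4-/- cells and 2664, 3358 and 3690 in wt cells. Array 3 was the highest in both genotypes for 3 of them, and for 14.4% of all probes. All 3 sums were highest on array 3 of each genotype, but each rested largely on 1 or 2 bright genes. Without Mpo the neutrophil sum was 1815, 1801 and 1943.5 in Matn4-/- cells and 1667, 2050.2 and 2103 in wt cells. Without the globin genes Hba-a1 and Hbb-b1 the erythroid sum was 1798, 1922 and 1866 in Matn4-/- cells and 1734, 1936 and 1857 in wt cells, so array 2 was then the highest of each genotype. The median log2 difference of array 3 minus array 1 over the genes of a list was 0.44 in Matn4-/- cells and 0.19 in wt cells for eosinophil genes, 0.094 in Matn4-/- cells and 0.21 in wt cells for neutrophil genes, and 0.071 in Matn4-/- cells and 0.20 in wt cells for erythroid genes.

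The other lists were summed in the same way. For 12 cytotoxic T and NK cell genes the sum lay between 1424 and 1442 in Matn4-/- cells and between 1407 and 1473 in wt cells, array 3 the highest of each genotype by a narrow margin, and 9 never exceeded the Y-linked level, Gzmk and Cd3e among them. For 10 monocyte and dendritic cell genes it lay between 1380 and 1550.4 in Matn4-/- cells and between 1383 and 1521 in wt cells, and the median of array 3 minus array 1 was 0.069 in Matn4-/- cells and 0.058 in wt cells. For 7 megakaryocyte genes it lay between 1425 and 1519 in Matn4-/- cells and between 1539 and 1671 in wt cells, with array 3 the lowest in both, and for 4 B cell genes between 508 and 554 in Matn4-/- cells and between 525 and 540.3 in wt cells. The sum of 9 stem cell and sort marker genes was 2313, 2427 and 2003 in Matn4-/- cells and 2226, 2244 and 2320 in wt cells. Cd48, whose product the sort gated out, never exceeded the Y-linked level, and Slamf1, which encodes CD150, did so on all arrays. In these lists of other cells 0 genes passed the limma test. An unadjusted p under 0.05 was reached by 1 erythroid gene (Car1), 1 megakaryocyte gene (Vwf) and 1 stem cell gene (Hlf). Of these, Hlf passed the Y-linked level on Matn4-/- array 3 only. The part of these other cells in the levels of the 8 genes was not tested.

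**Figure D4:**
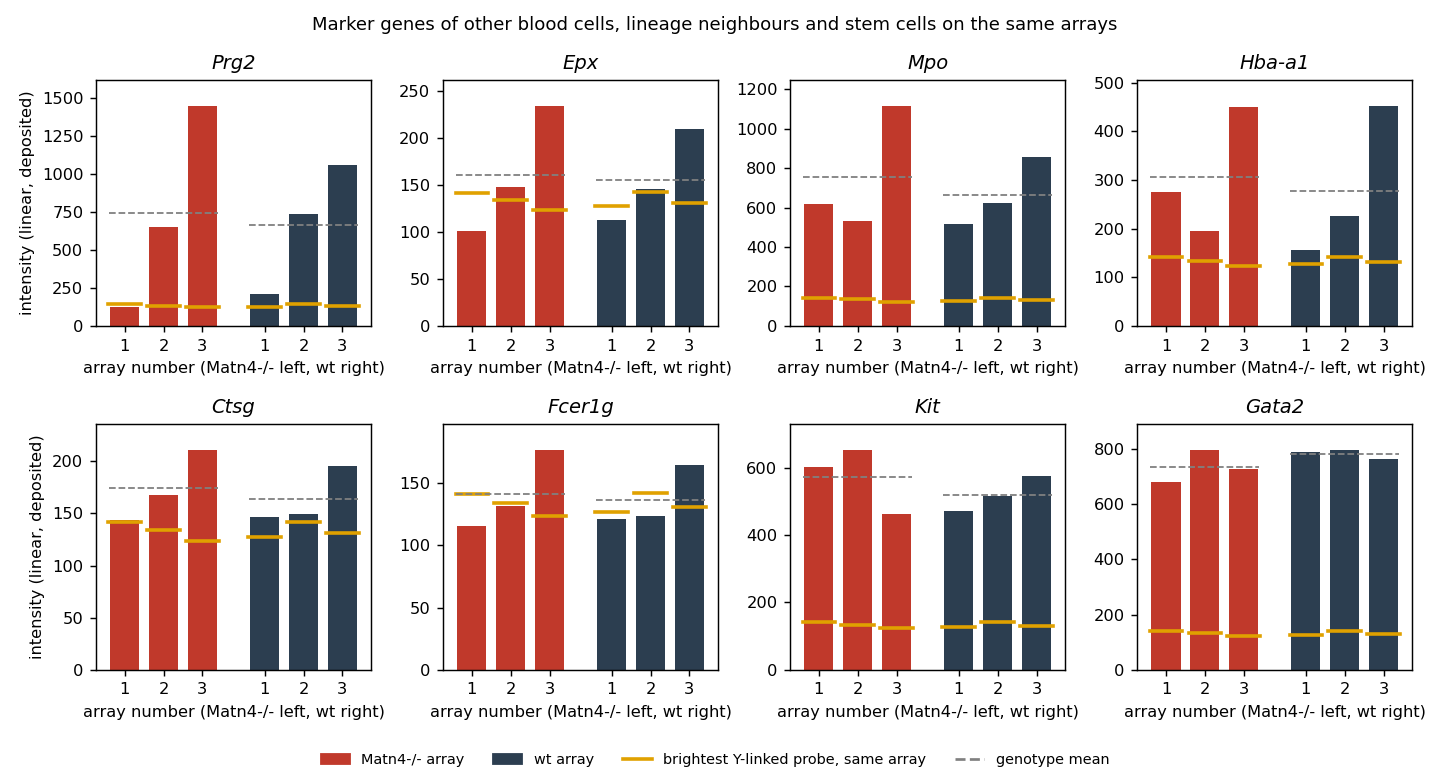
Bars give the deposited intensity of 8 genes outside the members on the 3 Matn4-/- arrays (red, left) and the 3 wt arrays (dark blue, right), with the brightest Y-linked probe as an orange line and the genotype mean as a dashed line. Prg2, Epx, Mpo, Hba-a1, Ctsg and Fcer1g are highest on array 3 of each genotype, while Kit and Gata2 are not.

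The genes most like the members were sought among 179 genes that ranged over at least 1 on the log2 scale and passed the Y-linked level on at least 3 arrays. Likeness was Pearson's r over the 6 arrays with the mean of the 8 genes, which rests largely on the arrays numbered 3. In descending order they were Ahnak, Tyrobp, Mpo, Rad21, Rbm4, Avl9, Nipa1, Emc3, Hba-a1 and Supv3l1, with r between 0.87 and 0.98. Against the mean of the 4 readable genes alone the order changed: Tyrobp came first among these 10 with 0.96, Rbm4 stood above Rad21, and Emc3 came last with 0.82. All 10 had array 3 highest in both genotypes, an order that the choice by r favours, but by unlike margins. The log2 difference of array 3 minus array 1 was 1.08 in Matn4-/- cells and 0.04 in wt cells for Supv3l1. It was 1.49 and 0.28 for Avl9, and 1.48 and 0.27 for Rbm4, in the same order. For Hba-a1 the wt difference was the larger, 1.53 against 0.71 in Matn4-/- cells. Tyrobp, an adaptor of myeloid and NK cell receptors, read 303, 344 and 926 in Matn4-/- cells and 308, 289 and 457 in wt cells. Mpo, the myeloperoxidase of neutrophil granules and their progenitors, read 617, 534 and 1114 in Matn4-/- cells and 517, 621 and 857 in wt cells. Hba-a1, an alpha globin gene, read 275, 194 and 449 in Matn4-/- cells and 156, 227 and 452 in wt cells. The points of each r are the same 6 arrays, so the 10 values are not independent and no p is given.

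The gene targeted in the mutant, Matn4, overlapped between the groups. Of its 3 probes the brightest read 168, 318 and 331 on arrays labelled Matn4-/- and 310, 158 and 378 on wt arrays (log2 -0.02 ± 0.34 SE), and the other 2 never exceeded the Y-linked level. The sources used here do not place these probes relative to the deletion, so they do not check the labels. Ptprc, the CD45 gene, read 226, 208 and 192 in Matn4-/- cells and 247, 209 and 226 in wt cells with its brightest probe.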

How the data were processed

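Values are the deposited linear intensity of each probe on each array. How the authors normalized them and treated background, and the genome build behind the probes, are not given in the sources used. A second, non-normalized table was not used, because its 12 value columns match no label. Intensities were transformed to log2 and all 46237 probes were fitted in limma (version 3.58.1, under R 4.3.3) by lmFit and eBayes (genotype as the only term, Benjamini-Hochberg adjustment over all probes, threshold 0.05). Log2 differences are Matn4-/- minus wt and understate changes of dim genes. A gene is represented by its brightest probe by mean log2 intensity. Gene symbols are those of GEO's platform annotation. The fit was tested on simulated data.

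The members, gene lists and tests were chosen with earlier results of these data known. Named genes are the 8 members with every probe, the 10 most alike, Kit, Gata2, Matn4 and Ptprc, and genes of the mast cell, basophil and locus lists above the Y-linked level on all arrays with a range of at least 1 on the log2 scale. No list gene met the last condition, so other list genes were singled out after their values were seen. Promoters are from the RefSeq table of GRCm38.p6, which matched all 8 genes. Protein sequences were not used here. Tables were handled in pandas 2.3.3 under Python 3.11.15, and plots drawn in matplotlib 3.10.9. The number of arrays limits the precision.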

Additional observations from a re-analysis of the deposited data

How the results depend on the processing

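The count of member probes past the limma threshold was 0 under all 15 alternatives (with 8 member probes tested in the brighter 50% of probes, and 7 with 1 probe per gene), with 0 to 3 probes at an unadjusted p under 0.05 and a lowest adjusted p of 0.615. Over all probes 12 passed, against 7 with 1 probe per gene and 3 to 15 when 1 array was left out. With the Y-linked background subtracted 0 passed (1263 at an unadjusted p under 0.05). That subtraction set values under 16 to 16, where Gzmb then stood on all arrays. The subtracted folds of single genes given above had no such floor. The mean difference of the 8 genes, 0.12, ranged from -0.013 (without Matn4-/- array 3) to 0.22 on leaving out an array. The difference between arrays numbered 3 and 1 was 0.42 in Matn4-/- cells and 0.30 in wt cells, 1.04 and 0.51 after background subtraction, and 0.79 and 0.56 over the 4 readable genes, an alternative chosen after seeing the data. For Prss34 the genotype difference became -0.21 with background subtraction and -0.014 with array weights, and ranged from -0.17 to 0.24 on leaving out an array; without wt array 1 or 2 it was -0.08 or -0.04. For Hdc it became -0.042 with background subtraction, -0.18 with array weights and -0.0063 with its other probe, and ranged from -0.30 to 0.28; without wt array 1 or 2 it was -0.06 or -0.03. On leaving out an array Mcpt8 ranged from 0.02 to 0.74 and Fcer1a from 0.17 to 0.32; with background subtraction Mcpt8 was 0.61 and Fcer1a 0.95, against 0.37 and 0.27. The cause of these shifts was not tested. Deviations of same-numbered arrays from their genotype means had correlations of -0.0023, 0.05 and 0.04 over all probes. In the brighter 50% of probes they were 0.0096, 0.044 and 0.050. Only 19.2% of all probes were above the Y-linked level on all arrays, so these correlations cannot decide whether the numbers are pairs for the readable genes. The labels do not say what same-numbered arrays share, so the number was left out of the fit. With the replicate block 8 of all probes and no member passed. The SE was then 0.085 for Mcpt8, 0.11 for Hdc, 0.086 for Prss34 and 0.071 for Fcer1a, against 0.35, 0.29, 0.21 and 0.086 without it. The choice of members used the order by array number, so these SEs cannot decide whether the numbers are pairs. Signal over background limits the 4 genes at the Y-linked level.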

Other observations

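Some lineage genes outside the 8, singled out after their values were seen, were highest on Matn4-/- array 3. That array was the highest of its genotype for 41.4% of all probes and for 59.4% of the probes dimmer than the median. Other genes of the same lists were the lowest of their genotype there. Among these were Hnmt, Hpgds and Ltc4s (histamine and lipid mediators), Crlf2, Csf2rb and Cd69 (surface receptors), and Il4, Il5 and Csf2 (cytokines). Alox5, the 5-lipoxygenase gene of leukotriene synthesis, read 113, 108 and 204 in Matn4-/- cells and 103, 117 and 106 in wt cells. Itgb7, an integrin subunit of mast cell progenitors, read 126, 137 and 189 in Matn4-/- cells and 140, 138 and 145 in wt cells. Ccl9, a chemokine gene, read 129, 139 and 216 in Matn4-/- cells and 117, 135 and 147 in wt cells. Alox5 passed the Y-linked level on 1 array, Itgb7 on 4 and Ccl9 on 3. The erythroid gene Car1, a carbonic anhydrase, was higher on every Matn4-/- array than on every wt array, as were 5.7% of all probes. It read 223, 257 and 204 in Matn4-/- cells and 137, 166 and 199 in wt cells (log2 0.46 ± 0.13 SE, limma adjusted p = 0.855).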
